A study of Sus scrofa with 6 samples.

Results

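The sine oculis (SIX2, SIX4, SIX5), eyes absent (EYA1, EYA2, EYA4) and dachshund (DACH1) genes of the pig were examined peak by peak in open chromatin of embryonic somites and myotomes. A peak belonged to one of these members when it overlapped the gene body or the 2 kb before its start by at least 1 bp. These 7 genes, of 25859 annotated, held 782 of 1047483 deposited peaks. Peaks of the 6 libraries that overlapped were merged, which gave 230 member regions of 294825 regions in all. Of the 230, 15 overlapped an annotated start of the gene or the 2 kb before one (promoter regions), 22 overlapped an exon and 193 lay in introns.

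The assay was single-cell ATAC-seq, where a transposase (Tn5) cuts accessible DNA and each cut carries the barcode of a cell. Somites are the embryonic segments that form trunk muscle, and were sampled on day 18 (E18) and day 21 (E21) of development. Myotomes are their muscle-forming part and were sampled on day 28 (E28). At each stage there was 1 library of purebred Tibetan pigs (ZZ) and 1 of Duroc × Tibetan crosses (DZ), and the labels name no treatment or altered gene. Each library was a mixture of 5 embryos of 1 sow, so individual embryos could not be separated and sow and library cannot be told apart. E28 also differed in tissue, so stage and tissue cannot be told apart there.

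Sine oculis proteins are homeodomain transcription factors that bind the MEF3 sequence found in promoters and enhancers of muscle genes. EYA proteins are phosphatases without DNA-binding ability of their own that act as coactivators of sine oculis factors, and DACH proteins are recruited to the same complexes as corepressors. In the somite and limb the network acts upstream of and beside PAX3 and the myogenic regulatory factors, and EYA and sine oculis genes are expressed in the dermomyotome and myotome.

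Barcodes with 2000 to 30000 counts were kept, which left 9286 to 11243 barcodes and 89816504 to 133037579 counts per library. The median count per kept barcode was lowest in E28 ZZ (8084.5) and highest in E18 DZ (11452), and the number of peaks ranged from 131975 to 217138. Any pair of libraries shared 113 to 157 barcode sequences (1.2% to 1.46% of the first library of the pair). Levels are counts of cut sites scaled to the kept total of the library (CPM). Each library had its own peak calls, which were fewest in the E28 libraries, so a lower count can go with a narrower called peak, and the covered length is given beside the counts where the result turned on it. Of the marker lists, which are read against 20.9% of all windows higher at E28 and 22.2% lower, 5 of 9 fibroblast and mesenchyme genes had higher windows at E28 than at E18 and 1 had a lower one, and their summed level was 464 and 425 CPM at E18 against 592 and 540 CPM at E28. Of 8 neural progenitor genes 6 were lower, with summed levels of 460 and 508 CPM against 286 and 353 CPM. Lower windows were also called for 5 of 7 epithelial genes (288 and 284 CPM against 149.8 and 146.4 CPM), 4 of 4 cardiac genes (233 and 196 CPM against 83.0 and 117 CPM), 3 of 6 kidney genes (774 and 721 CPM against 563 and 536 CPM), 5 of 8 endothelial genes with 2 higher (353 and 377 CPM against 346 and 337 CPM) and 3 of 7 neuron genes with 1 higher (302 and 306 CPM against 233 and 235 CPM). The blood, neural crest and cartilage lists had 2 of 5, 1 of 5 and 1 of 7 lower and 1, 0 and 0 higher. Of 12 tested myogenic genes MYOG and CHRNA1 were higher and PAX3 and TNNI1 lower, with summed levels of 553 and 554 CPM against 458 and 591 CPM. The kidney list summed higher than the myogenic one at E18, so such a sum does not check the labelled tissue. The window of GATA1, a blood marker, was listed at 0 in every library. In sums over whole libraries, fewer cells of a type and less open chromatin per cell cannot be told apart, and the part of these markers in the results below was not tested.

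Stage and breed each had a term in edgeR's quasi-likelihood test, and p-values were adjusted by Benjamini and Hochberg over all regions or all gene windows tested. Replication rested on the ZZ and DZ library of each stage, once breed was fitted, so the p-values measure only the spread between these libraries. Errors beside log2 fold changes are approximate standard errors. Each was obtained as the absolute log2 fold change divided by the square root of the test's F statistic.

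Summed over whole gene windows, the count of EYA4 rose and that of DACH1 fell between E18 and E28, whereas the other 5 windows did not pass the test. The EYA4 window held 53.6 and 48.4 CPM at E18 (ZZ first, then DZ, as in later pairs unless stated), 64.7 and 66.4 CPM at E21, and 85.5 and 98.03 CPM at E28. Both E28 libraries lay above both E21 libraries, which lay above both E18 libraries, and the E28 level was higher by 0.81 ± 0.11 on the log2 scale (edgeR, adjusted p = 0.0076). The call rested on the E18 DZ library, without which the log2 difference was 0.66 (edgeR, adjusted p = 0.062). The DACH1 window held 141 and 152 CPM at E18, 135 and 133.6 CPM at E21, and 75.6 and 71.3 CPM at E28. The E28 libraries were apart from the other 4, and the level fell by 1.03 ± 0.08 on the log2 scale from E18 (edgeR, adjusted p = 0.00348) and by 0.91 ± 0.08 from E21 (adjusted p = 0.0179, which became 0.075 without E21 DZ and 0.1337 without E21 ZZ).

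The lower DACH1 count went with fewer and shorter peaks. At E18 the window held 45 and 42 peaks, which covered 33167 and 29281 bp, and at E28 18 and 17 peaks, which covered 10952 and 11341 bp. When the fit was offset by the log of covered length, so that counts per base were compared, DACH1 turned to 0.43 higher at E28, but the median window was then 0.54 higher, so DACH1 stood below that median and EYA4 (0.53) beside it. Called windows were 1 member higher and 1 lower of 7, where 20.9% of 22612 windows were called higher and 22.2% lower.

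The windows of SIX2, SIX4, SIX5, EYA1 and EYA2 did not pass the test between E28 and E18. SIX2 held 55.7 and 56.5 CPM at E18 and 68.6 and 63.3 CPM at E28, a log2 difference of 0.20 ± 0.08 that did not pass (edgeR, adjusted p = 0.114). SIX5 held 162 and 153 CPM at E18 and 188 and 186 CPM at E28 (0.21 ± 0.09, edgeR, adjusted p = 0.101). These groups did not overlap, yet neither difference passed the test over all windows. SIX4 ranged from 65.2 to 85.7 CPM with no order by stage (0.02 ± 0.15). EYA1 had its highest and its lowest level at the same stage, 108 CPM in E28 DZ and 73.4 CPM in E28 ZZ, and its log2 difference of −0.03 ± 0.18 became −0.37 without E28 DZ (edgeR, adjusted p = 0.043). EYA2 ranged from 141 to 181 CPM (−0.12 ± 0.09). No member window was called between E21 and E18 by edgeR, which called 2.14% of all windows. DESeq2 called 1, where it called 3799 of all 22612 windows higher and 4004 lower, and 1 of the 7 had an unadjusted p under 0.05 in edgeR, as did 6660 of all windows. Between E28 and E21 DACH1 was the member called, against 5.17% of windows called lower and 1.04% called higher.

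**Figure D1:**
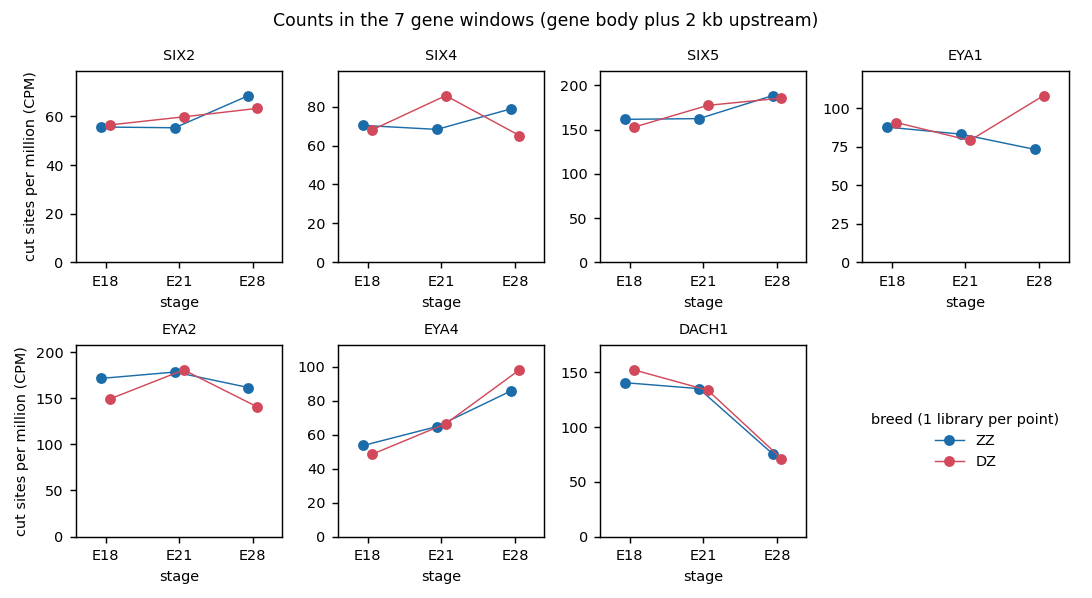
Levels of the 7 gene windows (gene body plus 2 kb upstream) in CPM against stage, with 1 point per library, blue for ZZ and red for DZ. EYA4 climbed from 53.6 and 48.4 CPM at E18 to 85.5 and 98.03 CPM at E28, DACH1 dropped to 75.6 and 71.3 CPM at E28, and the breeds parted most in EYA1 at E28.

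The genes differed in where their open chromatin lay. In SIX2, SIX4 and SIX5, which are short, promoter regions took 80.1% to 100% of the window's counts. In EYA2 promoter regions took 6.09% to 7.95% and introns 81.7% to 87.8%. In EYA1 promoter regions took 33.0% to 38.7%, in EYA4 27.5% to 42.0% and in DACH1 27.9% to 44.8%. The windows of SIX2, SIX4 and SIX5 thus mostly counted their promoters, and that of EYA2 its introns.

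Of the 230 member regions, 55 had a peak in all 6 libraries and could be tested (9 promoter, 9 exon and 37 intron regions). Between E28 and E18, 6 of the 55 were called higher and 12 lower by edgeR, where 19% of all 78533 tested regions were called higher and 18.1% lower. Of the 9 promoter regions 2 were called higher and 1 lower, against 23.2% and 17.2% of all promoter regions. Of the 37 intron regions 3 were called higher and 10 lower, against 18.8% and 17.1% of all intron regions. The median absolute log2 difference was 0.13 for member promoters, 0.55 for exon and 0.87 for intron regions, beside 0.38, 0.74 and 0.85 over all tested regions of those kinds. EYA2 held 6 of the 12 regions that fell and DACH1 4, EYA1 held 2 in each direction, and SIX2, SIX5, EYA2 and EYA4 each held 1 that rose. SIX4 held none in either direction. Without E18 DZ 5 of the 55 were called, where 4865 of all regions were called higher and 3875 lower. Without E18 ZZ 9 were called, against 9766 and 7177 of all. Without any other single library 13 to 17 were called, against 11250 and 10477 of all regions without E21 DZ, 11430 and 10025 without E21 ZZ, 13538 and 14339 without E28 DZ, and 15072 and 15792 without E28 ZZ.

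**Figure D2:**
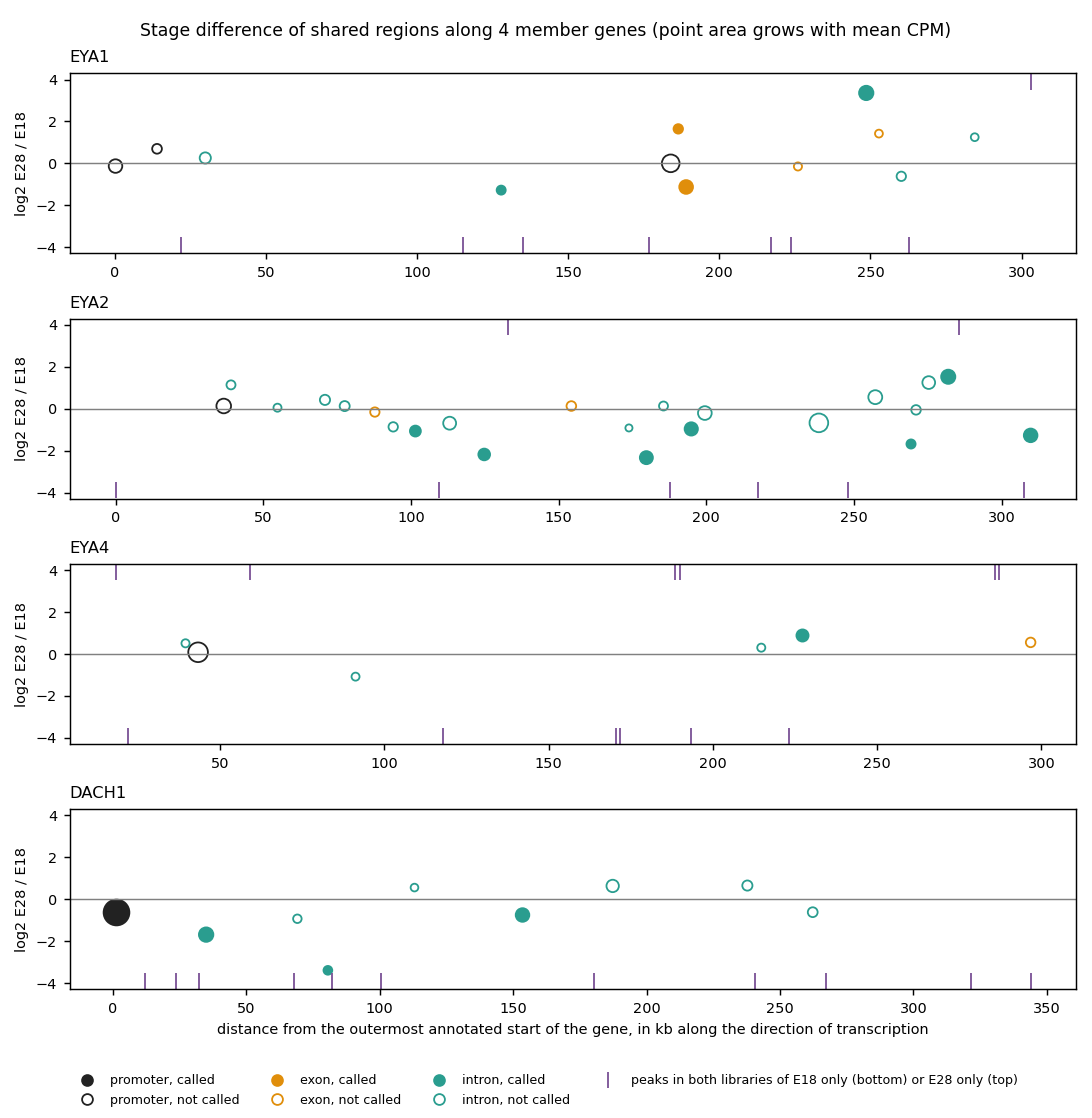
The log2 difference of E28 over E18 in shared regions of EYA1, EYA2, EYA4 and DACH1 against the distance in kb from the outermost annotated start, with filled points for called regions, point area growing with mean CPM, and purple ticks for regions with peaks in both libraries of E18 only (bottom) or of E28 only (top). The promoters of EYA2 and EYA4 sit near 0 and that of DACH1 at −0.58, and the highest and lowest points are introns of EYA1 (3.36) and DACH1 (−3.39).

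SIX2 lies on chromosome 3 (chr3:95460046-95463428, plus strand, Sscrofa11.1 throughout) and has a key role in kidney and connective tissue progenitors. Its promoter region (chr3:95458151-95461797) held 44.6 and 48.6 CPM at E18, 47.5 and 54.0 CPM at E21, and 64.5 and 58.3 CPM at E28. Both E28 libraries were above the other 4, and the promoter rose by 0.35 ± 0.10 on the log2 scale (edgeR, adjusted p = 0.0415). The call was lost without any single library other than E28 DZ, with differences from 0.24 to 0.36 and adjusted p from 0.0615 to 0.184, and without TMM scaling (0.27, adjusted p = 0.0724). When the test used regions with similar covered lengths alone (within 1.5 times across libraries) the difference was 0.11 (edgeR, adjusted p = 0.449). The exon region that reaches past the end of the gene held 11.05 and 9.08 CPM at E18 and 4.97 and 7.80 CPM at E28, which did not pass (−0.70 ± 0.32, edgeR, adjusted p = 0.137) except without E28 DZ (−1.25, adjusted p = 0.0113).

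SIX4 (chr1:189670390-189682378, minus strand), a sine oculis factor with a role in myogenic precursor cells, had a single tested region. Its promoter (chr1:189679257-189683253) held 70.2 and 68.0 CPM at E18, 68.3 and 84.9 CPM at E21, and 78.8 and 65.1 CPM at E28. The highest and lowest libraries were both DZ, and no stage was apart from the others (0.01 ± 0.15, edgeR, adjusted p = 0.966).

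SIX5 (chr6:52095332-52099458, minus strand) adjoins DMPK, the kinase gene of myotonic dystrophy. Its promoter region (chr6:52096588-52103302) also overlapped the windows of DMPK and LOC110261013, so its counts cannot be assigned to SIX5 alone. It held 150.7 and 142 CPM at E18, 162 and 177 CPM at E21, and 188 and 186 CPM at E28. It was the highest of the member promoters in every library also per covered length, at 21.6 to 37.0 CPM per kb. The rise was 0.31 ± 0.09 on the log2 scale (edgeR, adjusted p = 0.0406) and was lost without any single library other than E18 ZZ, at differences from 0.19 to 0.32. Among regions of similar covered length it was 0.07 (adjusted p = 0.696). A region over the end of the gene, shared with the window of BHMG1, held 8.72 to 14.3 CPM and did not pass (−0.20 ± 0.19, edgeR, adjusted p = 0.428).

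EYA1 (chr4:63970939-64328107, plus strand) is needed for ear, kidney and muscle development and spans 357169 bp with 8 annotated starts. The promoter region with the highest level covered the start 183.9 kb into the gene (chr4:64153746-64156005). It held 15.9 and 16.6 CPM at E18, 18.4 and 15.8 CPM at E21, and 15.3 and 18.3 CPM at E28, and the stages overlapped (0.00 ± 0.18, edgeR, adjusted p = 0.997). The promoter at the outermost start (chr4:63970379-63971861) held 6.11 to 10.7 CPM and the next tested one, 13.9 kb on, 2.17 to 5.32 CPM. Neither passed, with log2 differences of −0.13 ± 0.27 and 0.69 ± 0.38, though the latter reached an adjusted p of 0.04998 by edgeR without E28 ZZ (1.13).

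The intron region 248.6 kb into EYA1 (chr4:64218702-64220312) showed the highest rise of all 55 tested member regions. It held 1.81 and 1.51 CPM at E18, 9.28 and 13.2 CPM at E21, and 15.8 and 19.9 CPM at E28, with every library of a later stage above those of the stage before. It rose by 3.36 ± 0.29 on the log2 scale from E18 to E28 (edgeR, adjusted p = 0.00264), and most of the rise was present at E21 (2.66 ± 0.29, edgeR, adjusted p = 0.0188, which was 0.071 without E18 DZ, 0.256 without E21 DZ and 0.115 without E21 ZZ). The difference from E21 to E28 did not pass (0.70 ± 0.26, edgeR, adjusted p = 0.1508). Its peak spanned 597 and 506 bp in the E18 libraries but 1213 and 1456 bp in the E28 libraries, and per covered base the rise was 2.10 ± 0.21. The E28 against E18 call held in every alternative on whole libraries in which the region could be tested.

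An exon of EYA1 186.4 kb from the outermost start (chr4:64156685-64157981) held 1.26 and 1.29 CPM at E18, 3.80 and 3.83 CPM at E21, and 3.16 and 5.22 CPM at E28. It rose by 1.64 ± 0.35 (edgeR, adjusted p = 0.0165), which failed without E18 DZ (1.42, adjusted p = 0.152) or E18 ZZ (1.86, adjusted p = 0.0586). Its neighbour at 189.0 kb (chr4:64158684-64161136) went the other way, from 13.4 and 15.7 CPM at E18 to 6.73 and 5.36 CPM at E21 and 5.10 and 8.81 CPM at E28 (−1.13 ± 0.31, edgeR, adjusted p = 0.0346). Its covered length shrank from 2447 and 2414 bp to 1123 and 1471 bp, and with the offset the difference was −0.23. Both exon regions lie just downstream of the promoter at 183.9 kb, in which the stages overlapped. The remaining called region of EYA1, an intron at 127.8 kb, fell by 1.28 ± 0.39 (edgeR, adjusted p = 0.0487), and with the offset it was 0.49 higher.

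EYA2 (chr17:48930682-49243789, plus strand) is expressed in the dermomyotome and in limb muscle precursors. Of its 20 tested intron regions 1 rose and 6 fell from E18 to E28, and its promoter did not pass the test. The promoter region at 36.6 kb (chr17:48966205-48968380) held 10.2 and 9.71 CPM at E18, 11.8 and 10.2 CPM at E21, and 11.3 and 11.2 CPM at E28 (0.13 ± 0.19, edgeR, adjusted p = 0.623). Both E28 libraries lay above both E18 libraries, and the E21 libraries lay on either side of the E28 ones.

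The region that gained most in EYA2 was the intron at 281.9 kb (chr17:49211966-49213136), with 5.57 and 4.91 CPM at E18, 7.16 and 9.58 CPM at E21, and 11.8 and 20.6 CPM at E28. The stages did not overlap, and the region rose by 1.52 ± 0.31 (edgeR, adjusted p = 0.0138). Its covered length stayed between 881 and 1171 bp, and per covered base the rise was 1.41 ± 0.22. Without E18 DZ the difference was 1.09 and did not pass (adjusted p = 0.100). The intron at 179.7 kb (chr17:49109460-49111362) did the reverse. It held 10.1 and 9.96 CPM at E18, 13.4 and 10.3 CPM at E21, and 3.35 and 1.18 CPM at E28, so the loss lay between E21 and E28. It fell by 2.34 ± 0.38 from E18 (edgeR, adjusted p = 0.00801) and by 2.48 ± 0.38 from E21 (edgeR, adjusted p = 0.0290, but 0.199 without E21 DZ and 0.228 without E21 ZZ). Per covered base it fell by 1.44 ± 0.22 from E18, and the E28 against E18 call held in every alternative on whole libraries in which the region could be tested. The central 300 bases of both are printed as a gain and a loss that were both called also per covered base, at chr17:49212401-49212700 and chr17:49110708-49111007 (plus strand), and hold neither of the motifs described with the later sequences.

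EYA2 intron +281.9 kb: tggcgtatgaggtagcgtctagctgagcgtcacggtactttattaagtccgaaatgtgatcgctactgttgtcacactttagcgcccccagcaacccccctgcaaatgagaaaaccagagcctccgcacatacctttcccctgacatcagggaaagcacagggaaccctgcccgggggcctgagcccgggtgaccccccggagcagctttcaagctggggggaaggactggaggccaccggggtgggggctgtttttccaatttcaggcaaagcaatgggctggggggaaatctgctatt
EYA2 intron +179.7 kb: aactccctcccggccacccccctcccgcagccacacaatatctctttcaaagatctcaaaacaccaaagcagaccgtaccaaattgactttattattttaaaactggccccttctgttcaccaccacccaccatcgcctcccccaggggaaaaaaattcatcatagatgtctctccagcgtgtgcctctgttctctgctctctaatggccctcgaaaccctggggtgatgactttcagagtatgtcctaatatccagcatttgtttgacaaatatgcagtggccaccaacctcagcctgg

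Another 5 introns of EYA2 fell from E18 to E28. The intron at 124.8 kb (chr17:49054109-49056858) held 10.1 and 12.4 CPM at E18, 4.92 and 3.50 CPM at E21, and 2.93 and 2.25 CPM at E28. It fell by 2.18 ± 0.29 (edgeR, adjusted p = 0.0048) and was the member region called lower at E21 against E18 (−1.51, edgeR, adjusted p = 0.0389). Its covered length dropped from 2694 and 2722 bp to 834 and 572 bp, and per covered base the difference was −0.20. The introns at 101.5, 194.9, 269.3 and 309.8 kb fell by 1.07 ± 0.27, 0.97 ± 0.27, 1.69 ± 0.37 and 1.27 ± 0.21 (edgeR, adjusted p = 0.0267, 0.0372, 0.0182 and 0.00823). Of these, the one at 194.9 kb kept its call per covered base (−0.53, adjusted p = 0.047) but lost it without E18 DZ, E18 ZZ, E21 ZZ or E28 DZ (adjusted p = 0.144, 0.204, 0.0507 and 0.0936). The one at 269.3 kb was 0.45 higher per covered base. The one at 309.8 kb, which also lies in the window of LOC106506707, fell again from E21 (−1.42 ± 0.21, edgeR, adjusted p = 0.0278, lost without either E21 library at 0.190 and 0.228), and its E28 against E18 call was lost without E18 DZ (−1.23, adjusted p = 0.0791). The EYA2 intron with the highest level, at 238.1 kb (chr17:49166980-49170582), held 21.8 and 18.3 CPM at E18, 21.2 and 26.6 CPM at E21, and 15.0 and 11.02 CPM at E28. Both E28 libraries were the lowest, yet the difference missed the threshold (−0.68 ± 0.22, edgeR, adjusted p = 0.054) and passed without E21 DZ, E21 ZZ or E28 ZZ (adjusted p = 0.0433, 0.0413 and 0.0193).

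EYA4 (chr1:30260784-30575593, minus strand), known for roles in the inner ear and the heart, spans 16 annotated starts. Its tested promoter region (chr1:30530724-30533948) held 21.2 and 20.4 CPM at E18, 23.4 and 17.4 CPM at E21, and 22.3 and 23.0 CPM at E28. Both E28 libraries lay above both E18 libraries, but the E21 libraries spanned them all, and the difference did not pass (0.08 ± 0.16, edgeR, adjusted p = 0.708). The rise of the EYA4 window was thus not called at this promoter. The intron at 227.0 kb (chr1:30347951-30349175) held 4.38 and 4.55 CPM at E18, 5.77 and 7.52 CPM at E21, and 6.85 and 10.7 CPM at E28. It rose by 0.89 ± 0.27 (edgeR, adjusted p = 0.0456) and by 0.79 ± 0.22 per covered base, but the call was lost without any single library other than E28 ZZ (0.61 to 1.18, adjusted p from 0.0863 to 0.376). The other 3 tested introns and the exon did not pass. EYA4 had 53 regions, of which 6 could be tested, and the others lacked a peak in at least 1 library. Where a peak was lacking the region added 0 to the window sum, and the part of this in the window's rise was not tested.

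DACH1 (chr11:43765386-44187766, minus strand), a corepressor that counteracts activation by sine oculis and EYA proteins, was the gene whose promoter fell. Its promoter region (chr11:44184611-44189102), which also touches the window of LOC106505309, held 41.8 and 47.1 CPM at E18, 42.1 and 37.3 CPM at E21, and 33.9 and 27.7 CPM at E28. Both E28 libraries were below the other 4, and the promoter fell by 0.58 ± 0.12 (edgeR, adjusted p = 0.0139). The covered length went from 4490 and 4448 bp to 3576 and 3658 bp, and per covered base the difference was −0.28 ± 0.12 (adjusted p = 0.064), while among regions of similar covered length it was −0.82 (adjusted p = 0.000206). Without E18 DZ it was −0.43 (adjusted p = 0.125).

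Introns of DACH1 fell further, together with their peak lengths. The intron at 34.9 kb (chr11:44151391-44154367) held 14.7 and 15.9 CPM at E18, 11.04 and 11 CPM at E21, and 4.09 and 5.79 CPM at E28. It fell by 1.68 ± 0.23 (edgeR, adjusted p = 0.0052), with a peak of 2883 and 2970 bp in the E18 libraries but of 938 and 1079 bp in the E28 libraries, so per covered base it was −0.15 ± 0.20. The intron at 80.5 kb (chr11:44106699-44107772) held 3.40 and 3.66 CPM at E18, 3.47 and 2.64 CPM at E21, and 0.468 and 0.253 CPM at E28, a fall of 3.39 ± 0.41 (edgeR, adjusted p = 0.00398). Its covered length was 1073 and 1074 bp at E18 and at most 150 bp at E28, and per covered base it was −0.45 (adjusted p = 0.176). In both introns the called peaks were shorter at E28, and the difference per covered base did not pass the test. The intron at 153.5 kb fell by 0.75 ± 0.22 (edgeR, adjusted p = 0.0441). The remaining 5 tested introns did not pass.

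**Figure D3:**
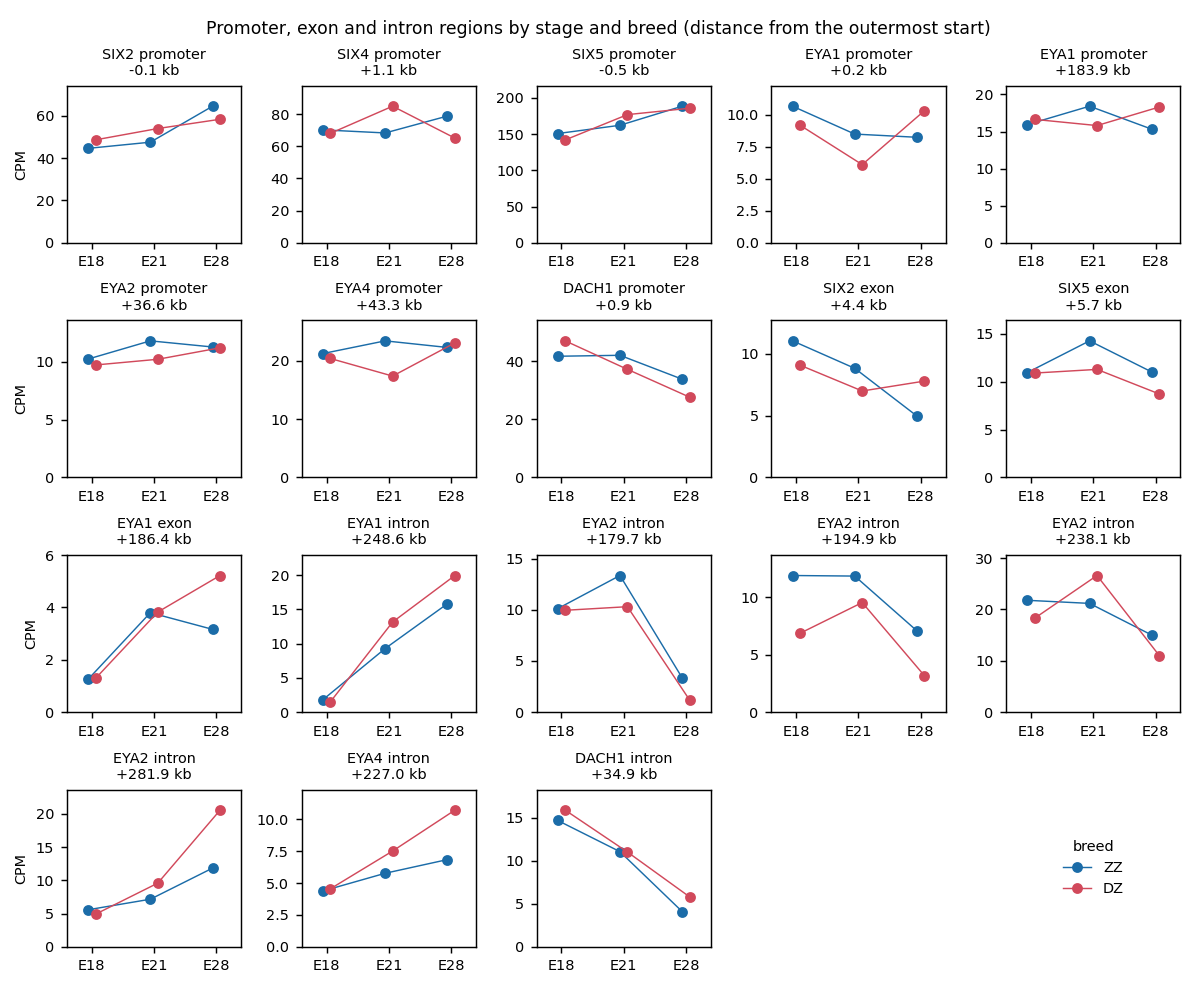
Levels in CPM of 8 of the 9 tested promoter regions and of 10 exon and intron regions against stage, with 1 point per library, blue for ZZ and red for DZ, each panel on its own axis from 0 and titled by distance from the outermost start. The EYA1 intron at +248.6 kb climbs from 1.81 and 1.51 CPM to 15.8 and 19.9 CPM and the EYA2 intron at +179.7 kb drops to 3.35 and 1.18 CPM, while at the EYA4 promoter the E21 levels span those of E18 and E28.

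Many of these differences depended on whether the covered length was taken into account. With the log of the covered length as an offset, 18 of the 55 regions were called higher at E28 and 2 lower, where 45.8% of all regions were called higher and 6.39% lower. The median of all regions was then 0.43. Read against that median, EYA1 at 248.6 kb and EYA2 at 281.9 kb stood well above it, and EYA2 at 179.7 kb, at −1.44, stood farthest below. Of the 18 regions called on counts, 8 also passed with the offset and kept their direction (6 of 6 higher and 2 of 12 lower), where 96.8% of all regions called higher on counts and 32% of those called lower did, so for a rise the offset adds no separate support. These were the promoters of SIX2 and SIX5, the EYA1 exon at 186.4 kb and intron at 248.6 kb, the EYA2 introns at 179.7, 194.9 and 281.9 kb, and the EYA4 intron at 227.0 kb. The promoters of SIX2 and SIX5 were not called among regions of similar covered length (0.11 and 0.07, adjusted p = 0.449 and 0.696). No region of DACH1 was among the 8. In 2 called regions the sign turned.

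**Figure D4:**
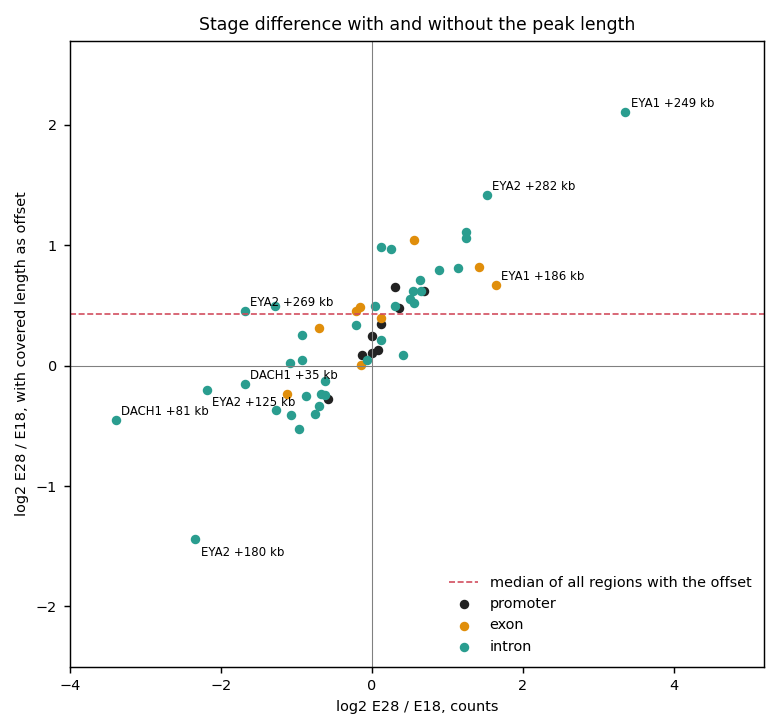
Log2 difference of E28 over E18 on counts (x axis) against the same with covered length as an offset (y axis) for the 55 tested member regions, black for promoters, orange for exons and teal for introns, with the median of all regions with the offset (0.43) as a dashed line. The DACH1 intron at +81 kb sits at −3.39 on the x axis but at −0.45 on the y axis, whereas the EYA2 intron at +180 kb is low on both axes and the EYA1 intron at +249 kb high on both.

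From E18 to E21, 1 of the 55 regions was called higher (the EYA1 intron at 248.6 kb) and 1 lower (the EYA2 intron at 124.8 kb), where 4.8% of all regions were called higher and 1.78% lower. From E21 to E28 none was called higher and 4 were called lower, where 2.53% and 4.61% of all regions were. The 4 were the EYA2 introns at 179.7 and 309.8 kb and the DACH1 introns at 34.9 kb (−1.15 ± 0.23, edgeR, adjusted p = 0.0425) and 80.5 kb (−3.09 ± 0.40, edgeR, adjusted p = 0.0252). Without either E21 library no region was called between E28 and E21 or between E21 and E18, among the members or over all 78533. Between E21 and E18 none of the members was called without E18 DZ, where 168 of all regions were higher and 1 lower, and 1 without E18 ZZ, where 1722 and 77 of all were. Without E28 ZZ or E28 DZ 4 members were called, against 9962 and 6830 or 10107 and 6973 of all regions. Without E28 ZZ 9 members were called between E28 and E21, against 6149 and 10013 of all. At an unadjusted p under 0.05, 26 regions differed between E28 and E18, 9 between E21 and E18 and 17 between E28 and E21, against 38178, 21679 and 22663 of all 78533 regions.

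Breeds were compared over the 3 stages together. No member region and no member window was called between DZ and ZZ by edgeR or by DESeq2, where 0% of all regions and 0.00442% of all windows were called by edgeR. DESeq2 called 129 of all regions higher in DZ and 30 lower, and 275 and 245 of all windows. In edgeR 0 of the 7 member windows had an unadjusted p under 0.05, as did 1185 of all 22612. At an unadjusted p under 0.05 edgeR gave 1 member region, the EYA2 intron at 194.9 kb, which held 6.87 against 11.9 CPM at E18, 9.55 against 11.9 CPM at E21 and 3.17 against 7.08 CPM at E28 in DZ against ZZ (−0.70 ± 0.22, edgeR, adjusted p = 0.847). Of all regions 3879 of 78533 had an unadjusted p under 0.05. Log2 differences of the breeds lay between −0.09 and 0.11 in the 9 promoter regions and between −0.70 and 0.67 in introns. In 6 of the 55 regions DZ was above ZZ at each stage and in 7 below it, where 28.8% of all tested regions kept a direction at each stage. In none of the 55 were the 3 DZ levels outside the range of the 3 ZZ levels, against 3.74% of all tested regions. Of the 7 regions with lower DZ levels at each stage, 5 were in EYA2, which held 23 of the 55 tested regions. The share of all regions with lower DZ levels at each stage was not computed, so nothing is read from this count. With 3 libraries of each breed a difference that the test missed may still exist. Because each combination of stage and breed had 1 library, a breed difference in the stage effect could not be tested.

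The 175 regions without a peak in every library could not be tested. A peak in both E18 libraries and no other was found in 30 member regions, in both E21 libraries and no other in 9, and in both E28 libraries and no other in 9, where 12.7%, 2.21% and 2.23% of all regions were of these kinds. DACH1, with 62 regions in all, held 11 of the E18 regions and none of the E28 regions. EYA4, with 53 regions, held 6 of the E28 regions and 6 of the E18 regions. These counts by gene were not tested against the shares of all regions. A further 57 member regions had a peak in a single library, and the share of all regions of this kind was not computed. The widest E28 region was an EYA4 intron 59.1 kb from the outermost start (chr1:30515971-30517069), with 5.03 and 12.5 CPM at E28 and listed at 0 in the other libraries, and that of EYA2 was an intron at 132.7 kb (chr17:49062931-49063766) with 5.03 and 4.21 CPM. The widest E18 regions were an EYA1 promoter at 135.0 kb (chr4:64105422-64106487) with 2.86 and 4.13 CPM and a DACH1 intron at 11.95 kb (chr11:44175200-44176429) with 2.12 and 2.42 CPM. Of the alternative promoters, the EYA1 start at 12.3 kb had peaks in E21 DZ (0.647 CPM), E28 ZZ (1.72 CPM) and E28 DZ (6.48 CPM) only. The EYA4 start at 158.5 kb had peaks in the same libraries, with 0.928, 1.72 and 4.76 CPM. The outermost EYA2 starts had peaks at E18 only (0.699 and 0.674 CPM), those at 84.9 kb in the 4 somite libraries (0.816 to 1.90 CPM), and that of EYA1 at 181.8 kb in E28 DZ alone (1.71 CPM). A region listed at 0 had no called peak there, which does not show that it held no cut sites.

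To see which cells carried these regions, cells were clustered on chromosomes that hold none of the members, with 100 kb around every marker and member left out. A cluster at a resolution of 0.6, with 6647 of 58809 cells, was named myogenic-like because 12 of 12 measured markers were raised, among them PAX3, PAX7, MYF5, MYOD1 and MYOG. It held 7.07% to 7.20% of cells at E18, 9.84% to 10.0% at E21, 13.6% in E28 ZZ and 21.1% in E28 DZ. At the coarser resolution of 0.3 the myogenic-like cluster held 1714 cells, from 68 in E18 DZ to 768 in E28 DZ. There 11 of 12 measured markers were raised, and PAX3 was not among them. The myogenic-like clusters at 0.3 and 0.6 are thus not the same set of cells. The largest cluster at 0.3 had raised fibroblast and mesenchyme markers but held 48846 cells (83.1%), where no cluster at 0.6 held over 25.2%, and it is not read as 1 cell class. All cluster levels are the median of 6 libraries with their range, given as a description without a test.

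SIX2, EYA1, EYA2 and EYA4 windows had their highest median in myogenic-like cells of the 0.6 clustering. The EYA2 window held 238 CPM (190 to 290) in myogenic-like cells, 200 CPM in neuron-like cells and 28.9 CPM in blood-like cells. The EYA4 window held 101 CPM (64.6 to 108) and the next cluster 85.3 CPM, the EYA1 window 120 CPM (111 to 138) and the next 103 CPM, and the SIX2 window 69.6 CPM (53.1 to 95.9) and the next 68.2 CPM. In each of the 4 the ranges of the leading and the next cluster overlapped. Blood-like cells had the lowest medians of 6 members, but the highest of SIX5 (216 CPM, with 214 CPM in epithelial-like and 165 CPM in myogenic-like cells). SIX4 was highest in epithelial-like cells (88.2 CPM, myogenic-like 81.9 CPM), and DACH1 had medians of 99.8 to 144 CPM in 10 clusters and of 47.8 CPM in blood-like cells. The epithelial-like cluster also had 3 cardiac markers raised, and the mean log2 of both lists was 0.94, so it may be mixed.

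Single introns differed more between clusters than the windows of their genes, and those named here were picked after their values were seen. Their order depended in part on the resolution, so values at 0.3 are given where the leading cluster changed. The myogenic-like cluster at 0.3 had fewer cells than that at 0.6, and the part of this in such changes was not tested. The EYA4 intron at 91.2 kb (chr1:30484134-30484681) held 9.45 CPM (2.18 to 12.1) in myogenic-like cells and at most 1.13 CPM as the median of any other cluster at the resolution of 0.6. At 0.3 it held 1.30 CPM (0 to 5.16) in myogenic-like cells, below 1.92 CPM in the largest cluster. The EYA2 intron at 257.2 kb held 29.2 CPM (21.0 to 43.4) against 14.9 CPM in neuron-like cells at 0.6, but at 0.3 it held 4.21 CPM (2.24 to 8.95) in myogenic-like cells, below 14.7 CPM in neuron-like cells and 8.75 CPM in the largest cluster. The introns of EYA2 at 281.9, 101.5 and 77.6 kb and of DACH1 at 113.0 kb had their highest median in myogenic-like cells at both resolutions. At 0.6 the EYA2 intron at 281.9 kb held 24.1 CPM (16.9 to 32.8) there, with 10.3 CPM in the next cluster (highest library 18.7). The EYA2 intron at 101.5 kb held 14.5 CPM (lowest library 6.92) against 6.60 CPM in neural crest and glia-like cells (highest library 22.6), so the ranges overlapped. The one at 77.6 kb held 14.4 CPM (13.1 to 18.4), with 10.1 CPM in neuron-like cells (highest library 13.5). The DACH1 intron at 113.0 kb held 4.97 CPM (1.32 to 6.67) against 1.60 CPM in neuron-like cells, while the DACH1 window held 142.9 CPM there and 144 CPM in a neural progenitor-like cluster. Of the 20 member regions led by myogenic-like cells at 0.6, 0 had every library above all libraries of the other clusters.

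The EYA1 intron at 248.6 kb and the EYA2 intron at 179.7 kb, both called from E18 to E28 also per covered base, were not highest in myogenic-like cells at either resolution. The EYA1 intron at 248.6 kb was highest in a fibroblast and mesenchyme-like cluster, at 21.5 CPM. Within that cluster it held 0.850 and 0 CPM at E18, 22.0 and 29.2 CPM at E21, and 21.0 and 26.6 CPM at E28, and the cluster itself grew from 416 and 362 cells at E18 to 4751 and 5536 cells at E28. In myogenic-like cells it held 5.26 and 6.61 CPM at E18, 13.8 and 18.1 CPM at E21, and 10.8 and 5.73 CPM at E28. The EYA2 intron at 179.7 kb was highest in neural crest and glia-like cells at 34.2 CPM, and all 6 of that cluster's libraries (23.0 to 62.7 CPM) were above every library of every other cluster. In myogenic-like cells it held 22.6 and 19.7 CPM at E18 and 3.56 and 1.198 CPM at E28. At 0.3 it held 13.8 and 4.22 CPM at E18 and 3.999 and 0.826 CPM at E28 in myogenic-like cells, a difference that did not pass (−1.90 ± 0.70, edgeR, adjusted p = 0.0663). The neural crest and glia-like cells at 0.6 numbered 373 and 445 at E18 and 155 and 180 at E28, and their part in the whole-library difference was not tested.

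**Figure D5:**
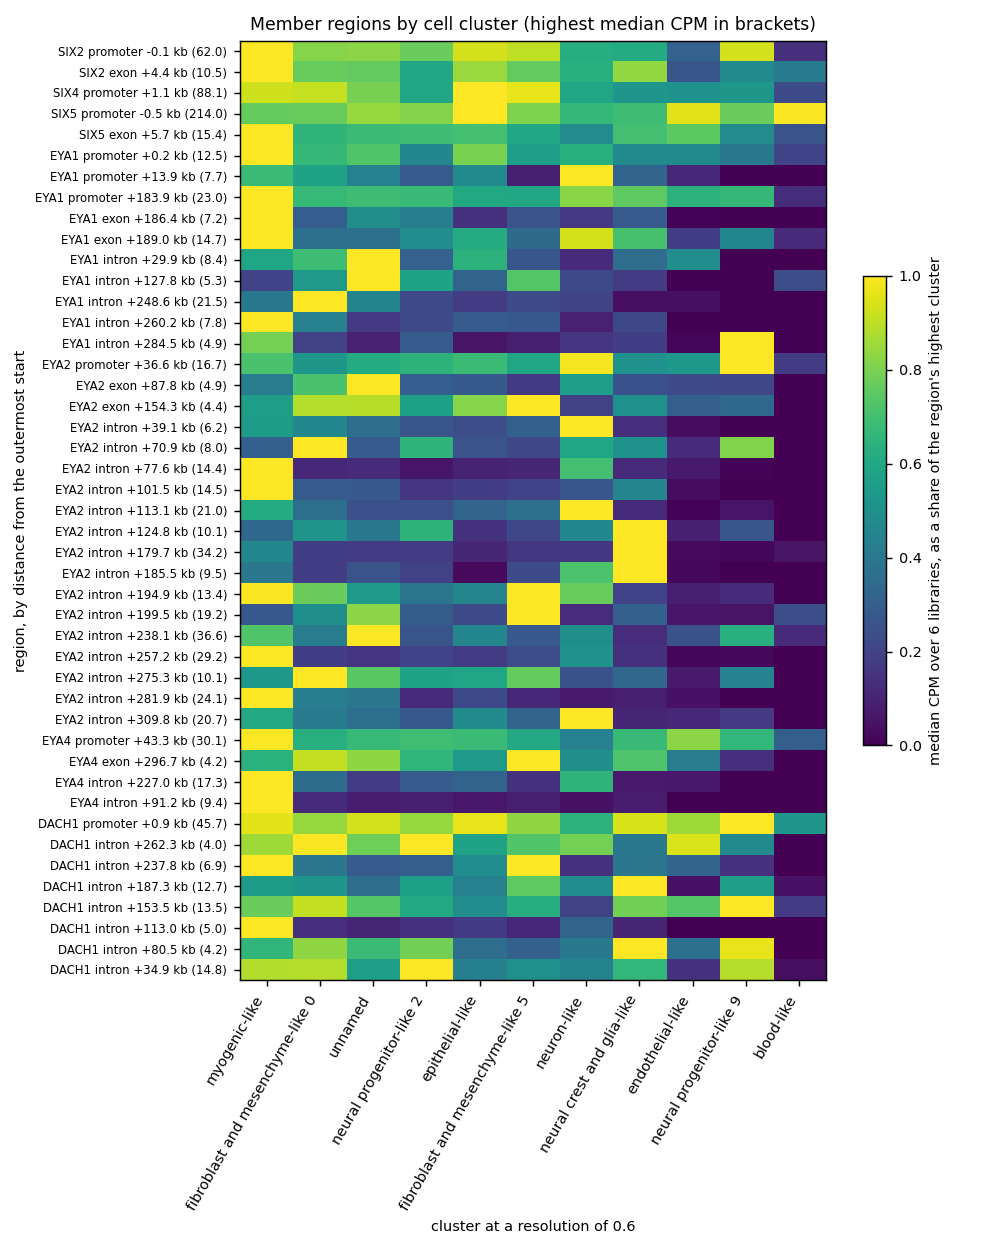
Median CPM over 6 libraries of 45 tested member regions (rows, those with a highest median of at least 4 CPM) in the 11 clusters at a resolution of 0.6 (columns), coloured from 0 to 1 as a share of the region's highest cluster, which is given in brackets in CPM. Promoter rows are bright in many columns. At this resolution the introns of EYA4 at +91.2 kb (9.45 CPM, a lead not held at 0.3) and EYA2 at +281.9 kb (24.1 CPM) are brightest in the myogenic-like column and the intron of EYA2 at +179.7 kb (34.2 CPM) in the neural crest and glia-like column.

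The stage test was repeated on counts summed over the myogenic-like cells of each library. At the resolution of 0.3, 37 of the member regions were tested. At E28 6 passed as higher and 2 as lower relative to E18, against 12.2% and 6.87% of all 54704 regions tested there. Of the 6, 2 were at or near 0 at E18 and entered the test through the later stages, so nothing is read from the count. The SIX2 promoter held 26.7 and 38.0 CPM at E18, 66.3 and 59.3 CPM at E21, and 84.6 and 90.2 CPM at E28 in these cells, and rose by 1.59 ± 0.25 (edgeR, adjusted p = 0.000683). The EYA1 promoter at 183.9 kb, level in whole libraries, held 10.3 and 14.8 CPM at E18, 28.5 and 33.9 CPM at E21, and 29.1 and 36.3 CPM at E28, and rose by 1.53 ± 0.35 (edgeR, adjusted p = 0.00704). At both promoters every E21 and E28 library was above the E18 libraries. These cells held 1162112 and 947289 counts in total at E18, against 5251525 and 9689329 at E28. The E18 levels of single regions thus rest on few counts. The SIX5 promoter rose by 0.77 ± 0.18 (edgeR, adjusted p = 0.00952). The DACH1 promoter held 47.3 and 69.7 CPM at E18 against 30.9 and 24.7 CPM at E28 and fell by 0.93 ± 0.27 (edgeR, adjusted p = 0.0223), but did not pass with the covered length as an offset (−0.63 ± 0.27, adjusted p = 0.100). The other regions called there were the introns of EYA2 at 77.6 kb and of DACH1 at 187.3 and 237.8 kb, higher at E28, and of EYA2 at 124.8 kb, lower. With the covered length as an offset no member region was called lower there, so the EYA2 intron at 124.8 kb lost its call. The DACH1 introns, which were at or near 0, held 1.72 and 0 CPM and 0 and 0 CPM at E18, and are given as values without support from the test. The E18 sums came from 89 and 68 cells, and without E18 DZ 4 of 44 member regions were called higher and none lower, against 7.65% and 3.21% of all regions.

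With the larger myogenic-like cluster at 0.6, a test added after the data had been seen, 54 member regions were tested, of which 13 were called higher and 14 lower, against 19.1% and 17.2% of all 76664 regions. The SIX2 promoter rose by 1.11 ± 0.12, that of EYA1 at 183.9 kb by 1.43 ± 0.20, that of EYA4 by 0.64 ± 0.16, that of SIX5 by 0.50 ± 0.10 and that of SIX4 by 0.47 ± 0.13 (edgeR, adjusted p from 0.000395 to 0.0226). Each of these also passed with the covered length as an offset, with which 31.5% of all regions were called higher and 9.71% lower. For a rise this adds no separate support. Among regions of similar covered length 6 of 22 members were called higher and 3 lower, against 15.6% and 13.95% of all regions. These promoters were not read singly in that setting. EYA2 held 10 of the 14 regions that fell, 9 of them introns, and its introns at 179.7 and 194.9 kb fell by 3.20 ± 0.38 and 2.39 ± 0.29 (edgeR, adjusted p = 0.000493 and 0.000545). The EYA2 introns at 257.2 and 281.9 kb rose by 0.80 ± 0.17 and 0.69 ± 0.17 (edgeR, adjusted p = 0.0067 and 0.0122). None of these 4 introns was called at 0.3. The EYA1 intron at 248.6 kb did not pass in these cells (0.53 ± 0.38, edgeR, adjusted p = 0.307). The DACH1 promoter did not pass there either (−0.43 ± 0.16, edgeR, adjusted p = 0.0595). Clusters split the cells of 1 data set, so the share of early and late muscle cells within the class can differ between stages, and its part was not tested.

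The 300 bases in the middle of each tested region were searched on both strands for the core of the MEF3 site, TCAGGTT, which sine oculis factors bind, and for CAGCTG, an E-box of the kind that myogenic regulatory factors bind. In the member windows that hold both, the hits did not overlap. The MEF3 core was found in 7 of the 55 member windows (12.7%) and in 4.35% of all 78533, and the E-box in 12 (21.8%) and in 27.1%. Both were found in 2 member windows (3.64%) and in 1.12% of all, and these were the EYA2 intron at 124.8 kb and the DACH1 intron at 113.0 kb. Such matches describe the sequence and do not show binding. The 4 windows printed next had their highest median in myogenic-like cells of the 0.6 clustering, and all but the EYA4 intron also at 0.3. They were picked after their values were seen. They are the EYA2 introns at 77.6 kb (chr17:49008068-49008367), with 4 E-boxes, and at 101.5 kb (chr17:49032172-49032471), with a MEF3 core on the minus strand, the DACH1 intron at 113.0 kb (chr11:44074560-44074859), with a MEF3 core on the minus strand and an E-box, and the EYA4 intron at 91.2 kb (chr1:30484238-30484537), with neither. Capitals mark the motifs, and all printed sequences are the plus strand of Sscrofa11.1.

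EYA2 intron +77.6 kb: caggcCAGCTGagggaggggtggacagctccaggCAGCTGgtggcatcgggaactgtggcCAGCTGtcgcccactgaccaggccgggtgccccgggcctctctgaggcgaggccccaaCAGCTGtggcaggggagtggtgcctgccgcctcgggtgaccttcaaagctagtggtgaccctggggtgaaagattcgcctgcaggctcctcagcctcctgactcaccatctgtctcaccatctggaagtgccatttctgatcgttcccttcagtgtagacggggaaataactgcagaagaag
EYA2 intron +101.5 kb: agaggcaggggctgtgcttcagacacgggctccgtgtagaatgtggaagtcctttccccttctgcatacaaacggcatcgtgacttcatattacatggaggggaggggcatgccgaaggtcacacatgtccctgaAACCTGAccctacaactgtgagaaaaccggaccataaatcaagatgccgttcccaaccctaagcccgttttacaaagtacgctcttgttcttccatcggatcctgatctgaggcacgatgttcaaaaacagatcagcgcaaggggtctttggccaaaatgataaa
DACH1 intron +113.0 kb: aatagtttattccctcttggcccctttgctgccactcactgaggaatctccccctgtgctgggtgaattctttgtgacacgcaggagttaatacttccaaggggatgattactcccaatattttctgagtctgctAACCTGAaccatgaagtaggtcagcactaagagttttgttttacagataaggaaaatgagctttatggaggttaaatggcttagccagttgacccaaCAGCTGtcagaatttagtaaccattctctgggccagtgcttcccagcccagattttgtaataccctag
EYA4 intron +91.2 kb: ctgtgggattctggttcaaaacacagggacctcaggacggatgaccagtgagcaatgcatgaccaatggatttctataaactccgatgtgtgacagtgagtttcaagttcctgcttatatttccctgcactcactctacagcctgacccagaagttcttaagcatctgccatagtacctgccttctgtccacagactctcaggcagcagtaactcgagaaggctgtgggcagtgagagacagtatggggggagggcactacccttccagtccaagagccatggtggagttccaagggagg

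Levels of these 4 regions differed in their course. In whole libraries the EYA2 intron at 101.5 kb held 6.12 and 4.99 CPM at E18, 6.62 and 6.53 CPM at E21, and 2.69 and 2.76 CPM at E28, and the other 3 did not pass the stage test. In myogenic-like cells at 0.6 the DACH1 intron at 113.0 kb held 1.91 and 1.32 CPM at E18 against 5.35 and 6.67 CPM at E28 and rose by 1.94 ± 0.44 (edgeR, adjusted p = 0.0096). The EYA4 intron at 91.2 kb held 11.8 and 12.1 CPM at E18 against 5.48 and 2.18 CPM at E28 and fell by 1.63 ± 0.44 (edgeR, adjusted p = 0.0199), though not per covered base (−0.55, adjusted p = 0.185). The EYA2 intron at 77.6 kb stayed between 13.1 and 18.4 CPM in every library of these cells. At 0.3 it held 15.5 and 13.7 CPM at E18 against 29.7 and 26.8 CPM at E28 in myogenic-like cells and rose by 1.08 ± 0.35 (edgeR, adjusted p = 0.0402), whereas the DACH1 and EYA4 introns were not called there (1.06 ± 0.79 and −1.58 ± 1.51, edgeR, adjusted p = 0.369 and 0.494).

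Of the other 13 genes of the pathway that were listed, 3 had higher windows at E28 than at E18 and 3 lower, where 20.9% and 22.2% of all windows were, with a median log2 difference of −0.13 beside −0.04 over all windows. MYOG, the regulator of terminal muscle differentiation, rose from 7.16 and 6.25 CPM to 16.8 and 23.3 CPM (1.52 ± 0.22, edgeR, adjusted p = 0.00804), EYA3 by 0.32 ± 0.10 and SOBP, the sine oculis binding protein gene, by 0.34 ± 0.09. DACH2, the paralogue of DACH1, fell by 1.39 ± 0.25 (edgeR, adjusted p = 0.0129), PAX3 by 0.84 ± 0.12 and SIX6 by 0.63 ± 0.18. The windows of both DACH genes thus fell, and as with DACH1 the sign of DACH2 (0.68), of PAX3 (0.31) and of EYA3 (−0.14) turned with the covered length as an offset. None of the 13 was called between E21 and E18 or between the breeds, and 1, PAX3, was lower at E28 than at E21.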

How the data were processed

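Single-cell ATAC-seq was done on 6 libraries, 1 for each of 3 stages and 2 breeds. The authors processed the reads with Cell Ranger ATAC and deposited, for each library, a peak list on Sscrofa11.1 and a matrix of counts of Tn5 cut sites per peak and barcode, not normalised. Their later steps used Seurat 3.1.1 and Signac 0.2.2. The study's own cell filters were not reapplied, and no doublet caller was run.

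Barcodes with 2000 to 30000 counts were kept (58809 of 64439, 91.3%). Peaks sharing at least 1 bp were joined to form regions. Regions with a peak in all 6 libraries (78533) and gene windows (22612 tested) were compared with edgeR 4.0.16 in R 4.3.3, with TMM scaling, its filter on low counts, terms for stage and breed (2 residual degrees of freedom) and Benjamini-Hochberg adjustment over all features, and called at an adjusted p under 0.05. The labels give no separate cultures or animals within a library, so p-values measure only the spread between libraries, which may be technical. Because peaks had been called per library, the covered length was used as an offset, or regions were limited to covered lengths within 1.5 times, as alternatives. DESeq2 1.42.0, no TMM, other barcode limits, a single term, peaks up to 3000 bp and leaving out each library were also tried. On simulated counts for E28 against E18 with 200 changed features, 73% of regions and 92.5% of windows were recovered, with 7 and 12 false calls. The median absolute log2 difference there was 1.02 for regions and for windows. Recovery of smaller differences, or with a larger share of features changed, was not tested. The simulated counts had the same spread setting for every feature and changes only in features with higher counts. They had no breed difference and no peak lengths that differed by library. The recovery thus does not describe regions with larger spread, low counts or changing peak lengths.

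Cells were clustered (46419 regions, 50 components, Leiden resolution 0.3 or 0.6 with leidenalg 0.10.2) on chromosomes without members, without 100 kb around markers and members, with equal neighbours (5) from every library. A cluster was named from at least 3 raised markers. Named regions were all promoter regions, the highest other region of each member, the regions called with and without the offset in the same direction in both breeds, and the widest region of a single stage. Other called or cell-class regions were named after their values were seen. The members and lists were chosen with earlier results of these data known. Python 3.11.15, scikit-learn 1.9.0 and matplotlib 3.10.9 were used.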

Additional observations from a re-analysis of the deposited data

Results flagged for a closer look

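In 6 of 27 named regions and windows the level at E28 relative to E18 went one way in ZZ and the other way in DZ, and the difference between the breeds was not tested, since each stage and breed had 1 library. These entries are not all separate. The SIX4 promoter took nearly all counts of the SIX4 window, and the EYA1 promoters lie inside the EYA1 window. The log2 ratio of E28 over E18 was 0.16 in ZZ and −0.06 in DZ for the SIX4 window (DZ minus ZZ −0.23), and 0.17 and −0.06 for its promoter region (−0.23). It was −0.26 in ZZ and 0.25 in DZ for the EYA1 window (0.51). For the outermost EYA1 promoter it was −0.37 in ZZ and 0.17 in DZ (0.54), and for the EYA1 promoter at 183.9 kb −0.06 and 0.14 (0.19). For the region over the end of SIX5 it was 0.01 in ZZ and −0.32 in DZ (−0.33). Of the 55 tested member regions 10 went opposite ways. The share over all tested regions was not computed, so nothing is read from either count.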

How the results depend on the processing

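Member regions called between E28 and E18 numbered 18 of 55 tested, and 6 of 22 tested with covered lengths within 1.5 times (5 to 17 with 1 library left out), where 4670 of all 25935 regions of such lengths were called higher and 4417 lower. Between E21 and E18 there were 2, and 4 with DESeq2, 6 with the offset, and 0 with similar lengths or with peaks in at least 2 libraries, where over all 78533 regions DESeq2 called 9161 higher and 5058 lower and the offset 10173 and 3681. Similar lengths called 1586 higher and 852 lower of all 25935 regions there. Peaks in at least 2 libraries gave 0 calls over all 220421 regions, so that 0 is no trait of the members. Between E28 and E21 there were 4, and 11 with DESeq2, 16 with the offset, 2 with similar lengths and 0 with peaks in at least 2 libraries, where over all 78533 regions the offset called 23701 higher and 1776 lower and DESeq2 6635 and 8830. Similar lengths called 1148 higher and 1329 lower of all 25935 regions there, and peaks in at least 2 libraries again 0 of all 220421. Called member windows numbered 2 for E28 against E18, and 4 with DESeq2, 6 with the offset, 0 with similar lengths, where 1 of the 7 could be tested, 4 by peak midpoint and 1 of 6 with promoter peaks alone. Over all windows the offset called 13582 of 20368 higher and 441 lower there, DESeq2 6536 and 7429 of 22612, similar lengths 1124 and 1304 of 6511, peak midpoints 4498 and 4621 of 22294, and promoter peaks 2911 and 3233 of 19094. Called member windows numbered 0 for E21 against E18, and 1 with DESeq2 (3799 higher and 4004 lower over all windows) and 1 with the offset (3974 and 311). For E28 against E21 there was 1, and 3 with DESeq2 (3458 higher and 4406 lower over all windows), 5 with the offset (8708 and 136), and 0 with similar lengths or promoter peaks alone. Similar lengths called 120 higher and 191 lower of 6511 windows there, and promoter peaks alone 14 and 373 of 19094. In myogenic-like cells 8 of 37 tested regions were called, and, in settings added after the data were seen, 27 of 54 at a resolution of 0.6, 26 of 54 there with the offset (31.5% of all regions higher and 9.71% lower) and 9 of 22 there with similar lengths (15.6% and 13.95%), against 5 of 18 with similar lengths at 0.3 (5.31% and 3.51%; 4 to 8 with 1 library left out). No breed difference of a member was called in any of these settings. In myogenic-like cells 1 of 37 regions at 0.3 and 4 of 54 at 0.6 had an unadjusted p under 0.05 between the breeds in edgeR, against 2131 of 54704 and 4188 of 76664 of all, and DESeq2, run at 0.3, called none of the 37.

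With the offset the sign of the E28 against E18 difference turned for the windows of EYA1 (0.47), EYA2 (0.40) and DACH1 (0.43, and 0.39 against E21), the exon regions of SIX2 (0.32) and SIX5 (0.46) and the outermost EYA1 promoter (0.090). With similar lengths it turned for the SIX4 window (−0.27) and the promoters of SIX4 (−0.23), EYA1 at 183.9 kb (−0.24), EYA2 (−0.11) and EYA4 (−0.16). It also turned for the SIX4 window with promoter peaks alone (−0.074), for the promoters of SIX4 (−0.069) and EYA1 at 183.9 kb (−0.080) without TMM, and for the latter without peaks over 3000 bp (−0.012). With 1 library left out the SIX4 window ranged from −0.20 to 0.17, the EYA1 window from −0.37 to 0.25, the SIX4 promoter from −0.17 to 0.17, the outermost EYA1 promoter from −0.52 to 0.22, that at 183.9 kb from −0.21 to 0.20 and the EYA4 promoter from −0.10 to 0.26. The cause was not tested beyond the construction of these settings, which test fewer regions or samples, count per covered base or leave out TMM scaling. The offset moved the median of all regions from −0.02 to 0.43.

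No paired analysis was possible because the labels carry no replicate numbers for a replicate block; the breed term already compared stages within breeds, and the fit with stage alone is among the alternatives. The other barcode limits were not run for the myogenic-like cells. A peak that was not called gives a count of 0 whatever the depth, which limits the 175 regions that were not tested. It also limits the gene windows, those of EYA4 and DACH1 among them, because a window sums called peaks alone.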
